A study of Homo sapiens with 4 samples.

Results

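The gamma-tubulin ring complex is the template from which cells nucleate microtubules, and its genes were followed in TU-177 cells after knockdown of SKA3. TU-177 is an established line of laryngeal squamous cell carcinoma (LSCC). SKA3 is a subunit of the spindle and kinetochore-associated complex, which holds kinetochores on the ends of spindle microtubules. The gene set held 10 members of the 28729 genes in the deposited table: MZT1, MZT2A, MZT2B, TUBG1, TUBGCP2, TUBGCP3, TUBGCP4, TUBGCP5, TUBGCP6 and NEDD1. The set was selected on the measured FPKM difference of MZT1, one of the largest rises in these data, and the other members were taken in for belonging to the complex. The MZT1 difference between the groups is therefore given as a description, with no p-value. MZT1 stayed in the fit of all genes, so counts over all genes include it. Of the 10 members, 9 were measured and all 9 had a mean FPKM (mapped fragments, scaled to gene length and library size) of at least 1, the minimum for testing. TUBGCP5 was not analysed here.

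RNA was sequenced from 4 TU-177 samples. The 2 negative control (NC) samples had received a lentiviral control shRNA, and the 2 SKA3-KD samples a lentiviral shRNA against SKA3. Per the labels, both groups were selected with puromycin, so that the resistant cells were sequenced. No source used here says whether the sequenced cells came from 1 clone, or whether the 2 samples of a group were separate cultures. The p-values therefore measure only spread between these samples, which limma estimates for each gene partly from the other genes. Each FPKM is already divided by gene length and library size, so levels can be compared between genes, but only roughly. For MZT2A the length was 4093 bases, while its protein-coding transcripts held 575 distinct stretches of 50 bases. Its FPKM may therefore be too low beside that of other genes.

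Microtubules grow from gamma-tubulin, the product of TUBG1, which the gamma-tubulin complex proteins (TUBGCP genes) hold in a ring. TUBGCP2 and TUBGCP3 form the small complex with gamma-tubulin, and TUBGCP4, TUBGCP5 and TUBGCP6 complete the ring. MZT1 and the MZT2 proteins are small partners that bind the amino-terminal ends of complex proteins, and NEDD1 brings the ring to centrosomes and, through augmin, to the sides of spindle microtubules. In dividing cells this machinery builds the mitotic spindle on which the SKA complex acts.

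MZT1 (ENSG00000204899) lies on the minus strand of chromosome 13, at chr13:72708357-72727687 of GRCh38 in GENCODE 29. In RefSeq (GRCh38.p14) its start, at base 72727629, faces that of BORA, at base 72727923 on the plus strand, with 293 bases between the starts. BORA activates the mitotic kinase Aurora A. The 250 bases upstream of the RefSeq start of MZT1 (chr13:72727630-72727879, minus strand) are printed because, by the RefSeq starts, both genes read away from them. In GENCODE 29 the starts lie closer together, at base 72727687 for MZT1 and base 72727749 for BORA. By that annotation parts of the stretch lie within MZT1 and within BORA. The stretch was searched on both strands for TTTGAA and TTCGAA, forms of the cell cycle genes homology region, and for CCAAT, the box bound by NF-Y. Capitals mark the matches, with TTCAAA as the reverse complement of TTTGAA.
MZT1 upstream: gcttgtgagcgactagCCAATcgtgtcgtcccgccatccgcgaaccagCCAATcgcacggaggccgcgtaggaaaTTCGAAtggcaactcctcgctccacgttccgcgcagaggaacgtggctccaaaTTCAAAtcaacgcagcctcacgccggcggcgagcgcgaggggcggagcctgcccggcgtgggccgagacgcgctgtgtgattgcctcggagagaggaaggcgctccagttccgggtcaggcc

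Counted from the MZT1 start, the 2 CCAAT boxes begin at bases -234 and -202, TTCGAA at -175 and TTTGAA at -122. Among 35116 RefSeq promoter windows from 250 bases upstream to 50 bases downstream of a start, 34.6% held CCAAT, 15.2% TTTGAA and 1.45% TTCGAA. RefSeq windows matched 9 of the 10 members, with 11 windows in all. The windows of MZT1 and BORA share 207 bases, and BORA's window held the same 4 matches. Of the other members, MZT2A, MZT2B, TUBG1 and TUBGCP5 each had 1 CCAAT box, and none of the matched members other than MZT1 had TTTGAA or TTCGAA in this window. Such a match describes letters and not a bound factor.

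The libraries held an estimated 9015056 to 11966130 reads, as worked out from the smallest steps between FPKM values. SKA3 itself was at 9.40 and 9.64 FPKM in the NC pair and at 3.77 and 4.12 in the SKA3-KD pair, or -1.09 in log2 fold change with a standard error of 0.07 and an adjusted p of 0.0081 (limma with Benjamini-Hochberg adjustment), so the libraries followed their labels. Here and throughout, a log2 fold change is the difference in log2(FPKM + 1), SKA3-KD minus NC, which understates the change of low genes. The epithelial cell type on the label had few of its markers. KRT5, KRT14, KRT6A and TP63 all lay below 1 FPKM in every library, SFN lay between 133 and 155, and DSG3 was not analysed here. KRT17 was at 45.6 and 49.1 in NC but 29.4 and 35.7 in SKA3-KD, and fell by 0.53 on the log2 scale (adjusted p = 0.040, limma). PERP, a desmosomal protein, was at 72.7 and 66.1 in NC but 20.5 and 18.6 in SKA3-KD, and fell by 1.77 (adjusted p = 0.0065, limma). The summed FPKM of markers of other cell types was 13.1 and 13.9 in NC and 6.73 and 6.05 in SKA3-KD, most of it COL1A1 and DCN, with PTPRC, CD68 and HBB at or near 0. The part of these markers in the results was not tested.

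MZT1 transcripts were more abundant after SKA3 knockdown, while the other measured genes of the ring complex stayed within 0.41 of their NC level on the log2 scale. MZT1 FPKM was 2.70 times as high in SKA3-KD as in NC on average. NEDD1, which targets the ring, was 1.36 times as high, and this difference lay just outside the threshold. Among the ring proteins themselves, TUBGCP3 was slightly higher and TUBG1 and TUBGCP4 slightly lower, by less than the fit could tell from the spread between libraries.

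MZT1 stood at 16.5 FPKM in NC 1 with 12.4 in its partner NC 2, whereas SKA3-KD 1 held 42.8 and SKA3-KD 2 held 35.0. Both SKA3-KD libraries lay above both NC libraries, and the lower of them was over the higher NC library by more than the distance between the NC libraries. The reads behind them numbered 453, 257, 1002 and 950. The NC mean of 14.4 ± 2.88 (SD, n = 2) compares with an SKA3-KD mean of 38.9 ± 5.50 (SD, n = 2), which is 1.38 on the log2 scale with a standard error of 0.16. In bulk cultures, more cells that express MZT1 and more of its RNA per cell cannot be told apart. By its log2 fold change MZT1 ranked 20 among the 12645 genes tested and 4 among the 11464 of them with a mean of at least 20 reads. Leaving out 1 library at a time gave values between 1.19, without NC 2, and 1.57, without NC 1. None of the protein-coding transcript sequence of MZT1, read in stretches of 50 bases, occurs in the sense direction in an annotated transcript of another gene.

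**Figure D1:**
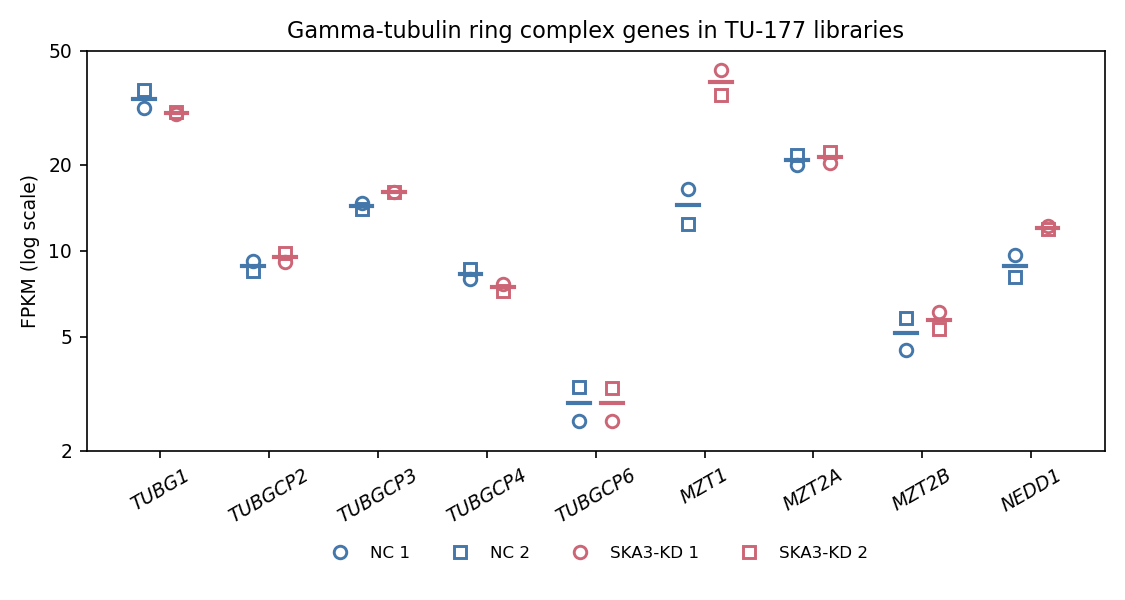
FPKM on a log axis for the 9 measured genes of the ring complex, with circles for replicate 1, squares for replicate 2, blue for NC, red for SKA3-KD and bars for group means. MZT1 lies at 12.4 and 16.5 in NC and at 35.0 and 42.8 in SKA3-KD, and the points of the other genes lie close together or overlap.

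Past an adjusted p of 0.05, limma called 0 of the 8 measured members other than MZT1, where 12.3% of all genes tested were called. At an unadjusted p under 0.05 the count was 1, NEDD1, against 31.3% of all genes. By limma voom on the recovered reads it was also 1, again NEDD1, against 25.7%. The groups did not overlap in 4 of the 8, with 2 higher and 2 lower in SKA3-KD, while 61.6% of all genes tested had no overlap. The median log2 fold change of the 8 was 0.06, beside 0.01 for all genes tested.

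**Figure D2:**
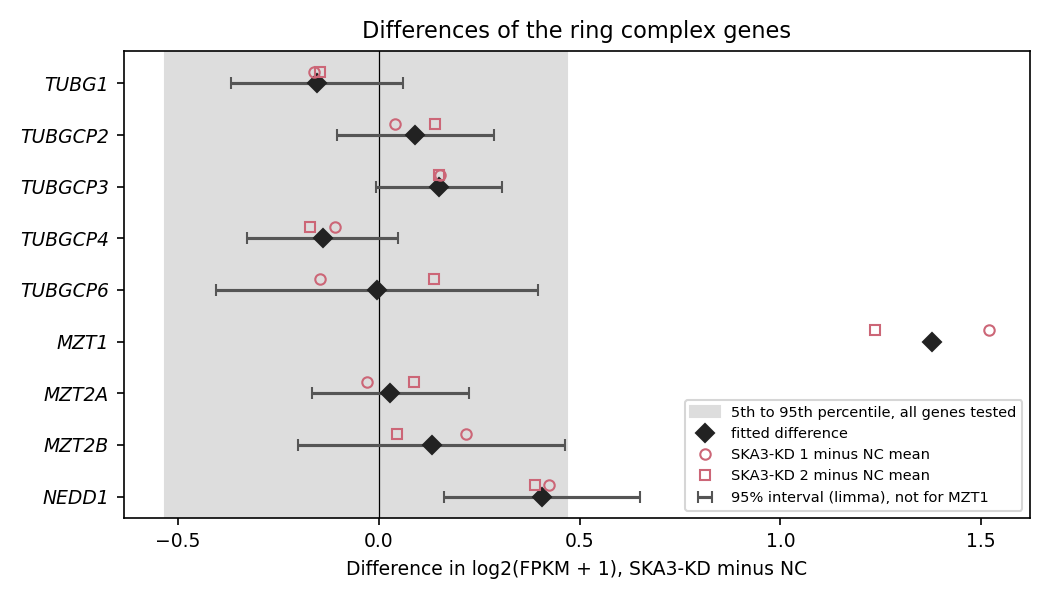
Difference in log2(FPKM + 1), SKA3-KD minus NC, for the 9 measured genes, with diamonds for the fitted value. Bars give its 95% limma interval, which is not given for MZT1. Open symbols are each SKA3-KD library minus the NC mean. The grey band runs from the 5th to the 95th percentile of all genes tested, -0.53 to 0.47, and MZT1 at 1.38 is the gene outside it.

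TUBG1, which encodes the gamma-tubulin of dividing cells, had the highest FPKM of the measured members in NC (chr17:42609676-42615234, GRCh38). Its FPKM was 31.5 and 36.4 in NC and 30.2 and 30.5 in SKA3-KD. Both SKA3-KD libraries were below both NC libraries, by little in the case of NC 1. The log2 fold change was -0.15 (95% interval -0.37 to 0.06, adjusted p = 0.278, limma). TUBG2, the paralog best known from the brain, had a much lower FPKM, at 5.88 and 5.80 in NC and 6.98 and 7.77 in SKA3-KD. It was higher in both SKA3-KD libraries, with a log2 fold change of 0.29 (95% interval 0.09 to 0.49, adjusted p = 0.077, limma). The ratio of TUBG2 to TUBG1 was 0.187 and 0.159 in NC and 0.232 and 0.255 in SKA3-KD, without overlap. Both genes are uncertain to the extent that they share sequence: 27.6% of the 50-base stretches of TUBG1 also occur in TUBG2. TUBG1 also overlaps RETREG3 on the other strand, and no source used here says whether the counting used strand.

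The genes of the small complex differed by at most 0.15 on the log2 scale. TUBGCP3 (chr13:112485005-112588205, GRCh38), on the same chromosome as MZT1, had an FPKM of 14.6 and 14.0 in NC and of 16.0 in both SKA3-KD libraries, which lay above NC without overlap. Its log2 fold change was 0.15 (95% interval -0.01 to 0.31, adjusted p = 0.173, limma). TUBGCP2 (chr10:133278630-133312337, GRCh38) had 9.17 and 8.52 in NC and 9.12 and 9.85 in SKA3-KD. Its groups overlapped, at a log2 fold change of 0.09 (95% interval -0.10 to 0.29, adjusted p = 0.468, limma). TUBGCP2 overlaps ZNF511 on the other strand and the noncoding gene AL360181.2.

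Of the proteins that complete the ring, TUBGCP4 (chr15:43369221-43409771, GRCh38) had an FPKM of 7.99 and 8.62 in NC and of 7.62 and 7.26 in SKA3-KD. Both SKA3-KD libraries lay lower, at a log2 fold change of -0.14 (95% interval -0.33 to 0.05, adjusted p = 0.263, limma). TUBGCP4 overlaps TP53BP1, ZSCAN29 and RN7SL487P, all on the other strand. TUBGCP6 (chr22:50217689-50244992, GRCh38) had the lowest FPKM of the measured members, at 2.54 and 3.35 in NC and 2.54 and 3.32 in SKA3-KD. In both groups replicate 2 was higher than replicate 1 by more than the group means differed. Its log2 fold change of -0.0047 had a 95% interval of -0.41 to 0.40 (adjusted p = 0.987, limma), and its sign turned under quantile normalization (0.02) and limma voom (0.03).

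The MZT2 genes, near-copies of each other on chromosome 2, had overlapping levels in NC and SKA3-KD. MZT2A (chr2:131464900-131492743, GRCh38) had an FPKM of 19.9 and 21.7 in NC and of 20.3 and 22.1 in SKA3-KD. MZT2B (chr2:130181737-130190729, GRCh38) had 4.51 and 5.81 in NC and 6.12 and 5.33 in SKA3-KD. In both genes 1 SKA3-KD library lay between the NC libraries. The log2 fold changes were 0.03 for MZT2A (95% interval -0.17 to 0.22, adjusted p = 0.834, limma) and 0.13 for MZT2B (95% interval -0.20 to 0.46, adjusted p = 0.536, limma). Of the 50-base stretches of MZT2A, 33.6% also occur in MZT2B, so how reads were divided between the copies is uncertain. The summed FPKM of both genes was 24.4 and 27.5 FPKM in NC and 26.4 and 27.5 in SKA3-KD, again overlapping. MZT2A also overlaps TUBA3D, and MZT2B overlaps SMPD4, each on the other strand.

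NEDD1 (chr12:96907223-96953777, GRCh38), the targeting subunit, was at 9.65 FPKM in NC 1 with 8.08 in NC 2, whereas SKA3-KD 1 held 12.2 and SKA3-KD 2 held 11.9. Both SKA3-KD libraries lay above both NC libraries, and the SKA3-KD libraries were closer to each other than the NC libraries were. The NC mean was 8.86 ± 1.11 (SD, n = 2) and the SKA3-KD mean 12.0 ± 0.231 (SD, n = 2). On the log2 scale the difference was 0.41, with a standard error of 0.10, a 95% interval of 0.16 to 0.65 and an adjusted p of 0.056 (limma). Of all genes tested, 15.2% had a larger change in either direction. NEDD1 passed the threshold with limma voom on the recovered reads (adjusted p = 0.0035), and over 9 alternatives with all libraries its adjusted p ran from 0.0035 to 0.146. No other annotated gene in the table overlaps NEDD1. No 50-base stretch of its protein-coding transcripts occurs, in the sense direction, in an annotated transcript of another gene.

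The order of the members by mean FPKM differed between the groups only in the place of MZT1. In NC the order of mean FPKM was TUBG1, MZT2A, MZT1, TUBGCP3, NEDD1, TUBGCP2, TUBGCP4, MZT2B and TUBGCP6. The ranges of MZT1 and TUBGCP3 overlapped there, as did those of NEDD1 and TUBGCP2 and of TUBGCP2 and TUBGCP4, so these neighbours did not differ beyond their spread. In SKA3-KD, MZT1 stood first, followed by TUBG1, MZT2A, TUBGCP3, NEDD1, TUBGCP2, TUBGCP4, MZT2B and TUBGCP6, and no neighbours overlapped.

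The summed FPKM of the 9 measured members was 116 and 119 in NC and 147 and 141 in SKA3-KD. Without MZT1 the sum was 99.9 and 106 in NC and 104 and 106 in SKA3-KD, so the groups then overlapped. MZT1 took 14.1% and 10.4% of the sum in NC and 29.1% and 24.8% in SKA3-KD. The ratio of MZT1 to TUBG1 was below 1 in both NC libraries, at 0.523 and 0.341, and above 1 in both SKA3-KD libraries, at 1.42 and 1.15. These are ratios of FPKM, which depend on the length used for each gene, and protein was not measured in these files.

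**Figure D3:**
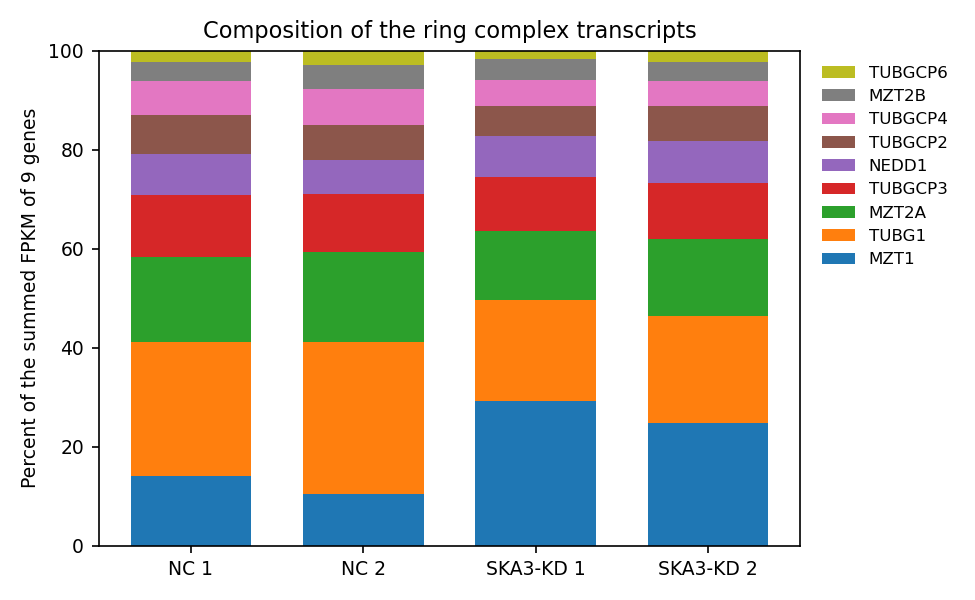
Share of each gene, in percent, in the summed FPKM of the 9 measured ring complex genes, with 1 bar for each library. The MZT1 segment at the foot of the bars is 14.1% and 10.4% in NC and 29.1% and 24.8% in SKA3-KD.

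The genes beside MZT1 stayed within 0.33 of their NC level on the log2 scale. BORA, read from the other side of the same upstream stretch, had an FPKM of 6.96 and 5.74 in NC and of 7.51 and 7.40 in SKA3-KD. It was higher in both SKA3-KD libraries, at a log2 fold change of 0.21 (95% interval -0.05 to 0.46, adjusted p = 0.231, limma). The ratio of MZT1 to BORA was 2.37 and 2.16 in NC and 5.71 and 4.74 in SKA3-KD. DIS3, a catalytic subunit of the RNA exosome, differed by -0.11 on the log2 scale (adjusted p = 0.350, limma), PIBF1, a centriolar satellite protein, by 0.33 (adjusted p = 0.167, limma), and KLF5, an epithelial transcription factor, by -0.19 (adjusted p = 0.168, limma). With BORA these are 4 tested neighbours, of which limma called 0, against 12.3% of all genes tested. At an unadjusted p under 0.05 the count was also 0, against 31.3%. The groups overlapped in 0 of the 4, with 2 higher and 2 lower in SKA3-KD, while 61.6% of all genes tested had no overlap. KLHL1, whose start lies over 2 Mb away, was listed at 0 in every library. KLF12, which lies within 2 Mb and was named after its values were seen, differed by 0.05. Over chromosome 13 as a whole, which also carries SKA3, the median log2 fold change of the 203 genes tested was -0.01, and 10.3% of them were called.

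**Figure D4:**
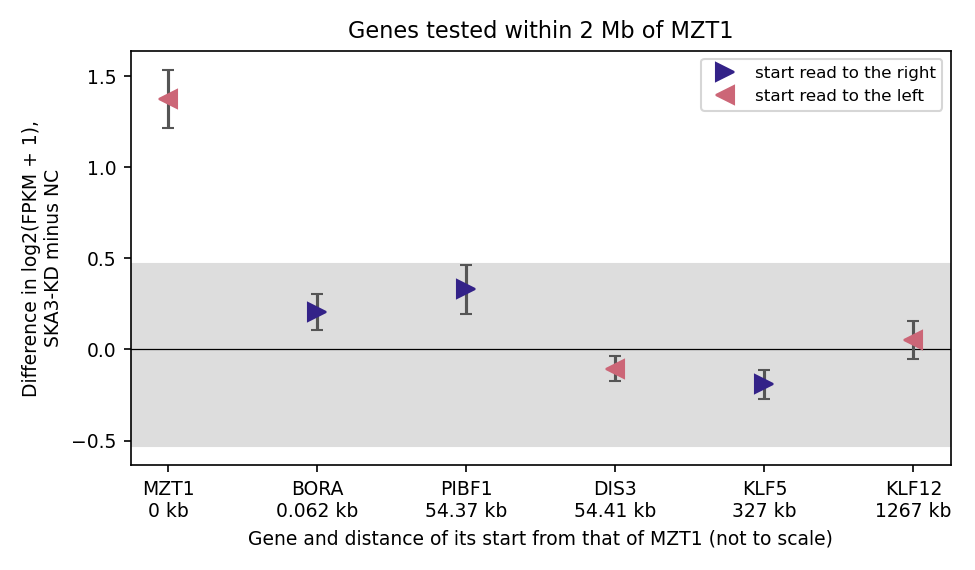
Difference in log2(FPKM + 1), SKA3-KD minus NC, with its standard error, for MZT1 and the genes tested whose starts lie within 2 Mb, ordered by distance from the MZT1 start and not drawn to scale. MZT1 at 1.38 lies above the grey band of the 5th to 95th percentile of all genes, and the other 5 genes, from -0.19 to 0.33, lie inside it.

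Genes that act with the ring complex were read in 5 lists by role, from the same fit. The lists were chosen with earlier results of these data known, so the counts are a description. Of 43 genes tested, 10 rose, 1 fell and 32 did not pass an adjusted p of 0.05, where 6.16% of all genes tested rose and 6.11% fell. The median log2 fold change over the 43 was 0.15. The genes that rose were mainly from the list of RAN-dependent spindle assembly factors, which also holds regulators of the GTPase RAN (5), and from that of the kinases (3). With 1 library left out the count of risen genes was 0 without NC 1, SKA3-KD 1 or SKA3-KD 2, and 2 without NC 2. The gene that fell, NEK7, was called in each of these fits except that without NC 1.

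Among 10 tethers and activators of the ring, counted with the gamma-tubulin paralog TUBG2, 1 rose, where 6.16% of all genes tested did. CKAP5, a microtubule polymerase also known as ch-TOG, stood at 37.5 and 34.6 FPKM in NC, below the 48.4 and 45.8 of SKA3-KD. It rose by 0.38 on the log2 scale (adjusted p = 0.034, limma). The centrosomal scaffolds CDK5RAP2 and PCNT, named here after their values were seen because they are the best known anchors of the ring, had log2 fold changes of 0.16 (adjusted p = 0.187, limma) and 0.17 (adjusted p = 0.224, limma). The median of the list was 0.15.

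Of the 8 subunits of augmin, the complex through which NEDD1 and the ring reach the sides of existing microtubules, 7 were tested and limma called 0. At an unadjusted p under 0.05 the count was 2, HAUS1 and HAUS2, named after their values were seen, and 2 of 7 is no larger a share than the 31.3% of all genes tested. HAUS1 FPKM was 11.0 and 11.9 in NC and 9.26 and 9.01 in SKA3-KD, and HAUS2 FPKM was 9.80 and 8.93 in NC and 6.93 and 7.41 in SKA3-KD. Both genes were lower in both SKA3-KD libraries, at log2 fold changes of -0.30 (adjusted p = 0.060, limma) and -0.34 (adjusted p = 0.054, limma). Over 9 alternatives the adjusted p ran from 0.035 to 0.129 for HAUS1 and from 0.0085 to 0.130 for HAUS2. HAUS7 lay under the filter, and the median of the 7 was 0.06.

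Of 10 RAN-dependent spindle assembly factors, 5 rose and none fell, where 6.16% of all genes tested rose and 6.11% fell. TPX2, which activates Aurora A and promotes nucleation around chromosomes, stood at 94.5 and 88.5 FPKM in NC, below the 133 and 132 of SKA3-KD. It rose by 0.53 on the log2 scale (adjusted p = 0.0138, limma). HMMR, a spindle pole protein that works with TPX2, rose by 0.58, and RANGAP1, the GTPase-activating protein of RAN, by 0.57. RCC1, the exchange factor of RAN on chromatin, rose by 0.34 and the RAN-binding protein RANBP1 by 0.33. The median of the list was 0.28. RAN itself differed by 0.15 (adjusted p = 0.141, limma). The rest of the list is named after its values were seen. KPNB1 differed by 0.23 (adjusted p = 0.082, limma) and KPNA2 by 0.06 (adjusted p = 0.461, limma). NUMA1 differed by 0.01 (adjusted p = 0.963, limma) and NUSAP1 by -0.02 (adjusted p = 0.867, limma).

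Of 7 genes in the list of kinases that switch on nucleation, counted with the Aurora A activator BORA, 3 rose and 1 fell. The shares over all genes tested were 6.16% and 6.11%, here and for the centriole genes below. PLK1, which promotes recruitment of the ring to centrosomes before mitosis, stood at 23.8 and 25.8 FPKM in NC, below the 42.4 and 42.8 of SKA3-KD. It rose by 0.76 (adjusted p = 0.0103, limma). AURKA, the gene of Aurora A, rose by 0.54 and NEK6 by 0.31. CDK1 and NEK9, named after their values were seen, differed by -0.04 (adjusted p = 0.808, limma) and 0.17 (adjusted p = 0.127, limma). NEK7, a close relative of NEK6 in the same cascade, fell from 11.8 and 11.0 FPKM in NC to 5.07 and 4.81 in SKA3-KD. On the log2 scale the fall was -1.06, with a standard error of 0.07 and an adjusted p of 0.0081 (limma). The ratio of NEK6 to NEK7 was 1.64 and 1.82 in NC and 4.69 and 5.36 in SKA3-KD. Of 9 centriole duplication genes, 1 rose, PLK4, the kinase that starts the process, by 0.34, and none fell.

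**Figure D5:**
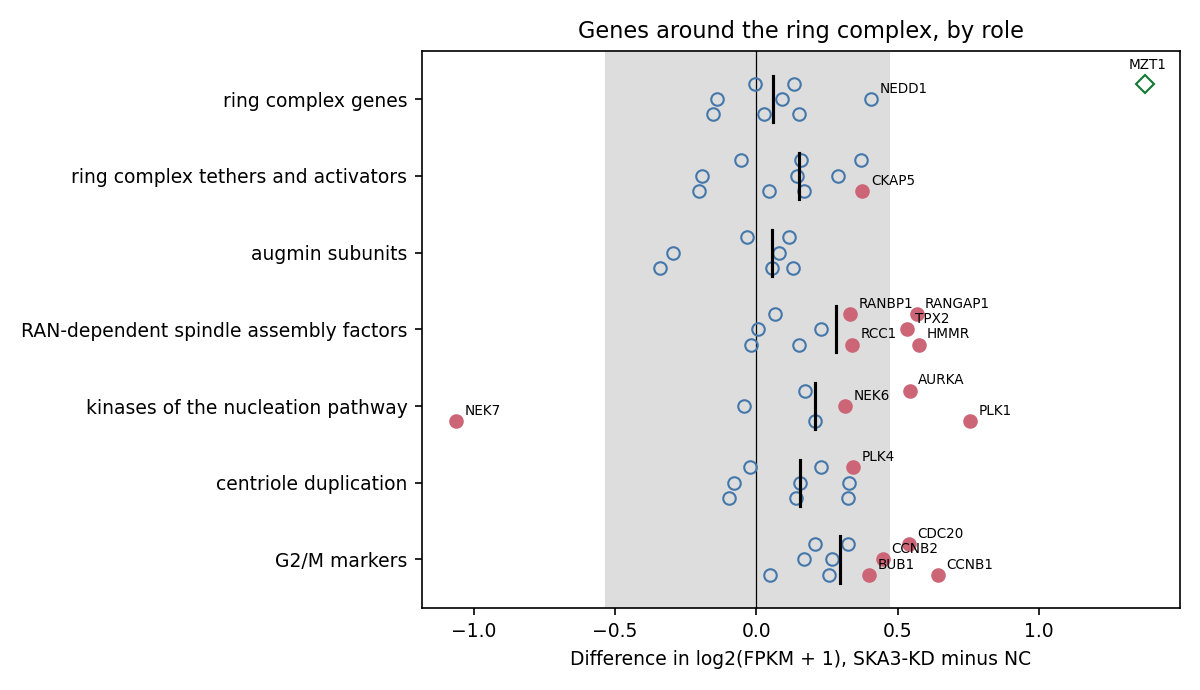
Difference in log2(FPKM + 1), SKA3-KD minus NC, for each tested gene of the ring complex and of the lists around it. Filled red circles are genes past an adjusted p of 0.05 and open blue circles the rest. MZT1, for which no p-value is given, is a green diamond, and black bars are list medians without MZT1. The grey band is the 5th to 95th percentile of all genes tested, and NEK7 at -1.06 and MZT1 at 1.38 lie furthest from 0.

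Many of these genes are transcribed mainly in G2 and mitosis, and some markers of those phases rose in the same libraries. Of 10 such markers, 4 rose, CCNB1 by 0.64, CDC20 by 0.54, CCNB2 by 0.45 and BUB1 by 0.40, and none fell. Over all genes tested 6.16% rose and 6.11% fell. At an unadjusted p under 0.05 (limma) the count was 8 of 10, against 31.3% of all genes tested. The remaining 6 did not pass the adjusted threshold, and they are named after their values were seen. CENPF differed by 0.33 (adjusted p = 0.051, limma), CDC25C by 0.27 (adjusted p = 0.098, limma) and AURKB by 0.26 (adjusted p = 0.083, limma). TOP2A differed by 0.17 (adjusted p = 0.210, limma), UBE2C by 0.21 (adjusted p = 0.125, limma) and MKI67 by 0.05 (adjusted p = 0.602, limma). All 10 were higher in both SKA3-KD libraries than in both NC libraries, where 32.3% of all genes were. Their summed FPKM was 500 and 473 in NC and 646 and 614 in SKA3-KD. Their part in the results for MZT1, NEDD1 and the lists was not tested.

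The genes whose profile over the 4 libraries lay nearest to that of MZT1, among 12644 others, were found by the Euclidean distance between log2(FPKM + 1) values after subtraction of each gene's mean. The first 3 were short RNA genes or unnamed: SNORA14B at a distance of 0.168, ENSG00000233052 at 0.199 and RNU4-23P at 0.275. None of these 3 had more than 12 reads in any library. EFEMP1, an extracellular matrix glycoprotein, came next at 0.276, with an FPKM of 28.2 and 26.1 in NC and of 68.3 and 57.9 in SKA3-KD. SEMA5A, a semaphorin, was at 0.277, with 2.08 and 1.76 in NC and 6.01 and 5.99 in SKA3-KD. With 4 libraries in 2 groups, such a likeness rests mostly on the difference between the groups.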

How the data were processed

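Total RNA of TU-177 cells was sequenced in 2 NC and 2 SKA3-KD samples. The authors deposited 1 table of FPKM values. The submitters' processing notes name hg19, Bowtie2 2.2.8, HISAT2, StringTie 1.3.1 and Cuffdiff 2.1.1, without a role or order, and the strand setting of the counting is not given in the sources used here. FPKM scales each library to its total, so a change in total RNA per cell is not seen.

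The 12645 genes whose FPKM averaged 1 or more were tested with limma 3.58.1 (R 4.3.3; lmFit, eBayes with trend) on log2(FPKM + 1), SKA3-KD minus NC, over all 4 libraries without covariates, with Benjamini-Hochberg adjustment and a threshold of 0.05. An exact two-sided permutation test of 2 against 2 libraries cannot go below p = 0.333. Whole reads, to a tolerance of 0.001, were recovered from the FPKM steps for 99.96% of these genes, 61.3% at the exon length of GENCODE 29, and gave limma voom as an alternative. Summed over genes they exceeded the library size in every library, at 12878433 in NC 1 and 9603353 in NC 2. In SKA3-KD 1 and SKA3-KD 2 the sums were 11014268 and 12740212. The cause was not tested, so recovered reads and the voom results are approximate. The fit was tested on simulated data, drawn with the same extra spread for every gene, which need not match these libraries. Library sizes were 11966130 and 9015056 reads in NC 1 and NC 2 and 10177854 and 11793604 in SKA3-KD 1 and SKA3-KD 2, and replicates differed by more than sampling noise (chi-square per degree of freedom 3.96 in NC, 3.90 in SKA3-KD). Symbols and positions are from GENCODE 29 (GRCh38) and promoters from RefSeq (GRCh38.p14), not the build of the notes, and the table holds no coordinates. Symbols matched 27043 identifiers. Sequence sharing was counted over 50-base stretches of protein-coding transcripts of the members and TUBG2. They were looked for in annotated transcripts of other genes, in the sense direction only.

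The members and lists were chosen with earlier results of these data known. Named were all members, TUBG2, SKA3, list genes past the threshold, the neighbours of MZT1 and the 5 genes with the nearest profile, and others as said in the text. Alternatives were median-of-ratios and quantile scaling, a pseudocount of 0.1, a filter at a mean of 5 or none, eBayes without trend or robust, a replicate block, voom, and each library left out. Python 3.11.15 was used for the remaining steps.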

Additional observations from a re-analysis of the deposited data

How the results depend on the processing

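With all libraries kept, the log2 fold change of MZT1 stayed between 1.37 and 1.43, and that of NEDD1 between 0.40 and 0.44. The count of members called other than MZT1 was 0, and it was 1, NEDD1, at a mean FPKM of at least 5, with robust eBayes, with the replicate block and with limma voom. Genes of the pathway lists called higher numbered 10, against 3 with no filter and 4 without a trend. Those called lower numbered 1, against 3 at a mean FPKM of at least 5, 2 with robust eBayes and 3 with voom. Over all genes, 779 were called higher and 772 lower, against 48 and 81 with no filter, 312 and 381 without a trend, and 1715 and 1534 with voom. The cause of these shifts was not tested. The scalings moved the median of all genes by less than 0.1.

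Leaving out 1 library leaves an arm with 1 sample, which is then assumed to vary like the other group. The count of members called then stayed at 0, the lists gave 0 to 2 genes higher and 0 to 1 lower, and all genes gave 0 to 82 higher and 0 to 131 lower, with 0 in both directions without NC 1. The log2 fold change of TUBGCP6, close to 0, turned positive under quantile normalization (0.016) and voom (0.027) and ran from -0.15 to 0.14 with 1 library left out. That of MZT2A ran from -0.030 to 0.087, also turning without NC 1 or SKA3-KD 2, and that of MZT2B from -0.021 to 0.28, turning without NC 1. At a mean FPKM of at least 5 TUBGCP6 has no value.

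The labels number replicates 1 and 2 in each group without saying that a number is shared. The difference of replicate 1 and 2 over genes correlated at 0.10 between the groups, over 2 pairs, so the numbers were not taken as pairs. With the replicate block, NEDD1 passed the threshold (adjusted p = 0.048, limma), and the lists gave 11 genes higher and 1 lower.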
